A study of Mus musculus with 17 samples.

Results

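The collagen genes were all rows whose symbol reads Col, a number, the letter a and a number, which gave 43 of the 36172 gene rows in the deposited table. They comprise 11 fibrillar genes, 6 type IV genes, 6 type VI genes and 20 others. Of these, 41 passed the filter on low counts. Col6a4 and Col10a1 did not, and their estimated counts over all libraries came to 34.1 and 11.0. RNA was sequenced from the extensor digitorum longus (EDL), a fast muscle of the lower leg, of 17 mice aged 22 or 23 months. The empty-vector group held 5 females (2 aged 22 months, 3 aged 23) and 5 males (1 and 4). The Hand2 group held 4 females (3 and 1) and 3 males (1 and 2). Hand2 is a transcription factor gene active in sympathetic neurons, and by its title the study asks how those neurons bear on muscle loss with age. The labels do not give the strain or the vector type, nor how, where or when the vector was delivered, and replicate numbers follow accession order. Each library is 1 animal, so every test compares animals.

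Collagens are extracellular proteins built from chains that wind around each other in a helix. Fibrillar collagens form the fibres of tendon and of the connective tissue between muscle fibres, type IV collagen forms the network of basement membranes, and type VI collagen makes beaded filaments next to the muscle fibre. The remaining collagens coat fibrils, anchor membranes, or span the cell membrane. In muscle, most fibrillar collagen comes from fibroblast-like cells and tendon cells, whereas basement membrane collagen is also made by blood vessels and muscle fibres.

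Several collagen genes lie next to each other with facing starts (mm10 coordinates of the deposited rows). Col4a1 (chr8:11198423-11312826, minus strand) and Col4a2 (chr8:11312829-11449287, plus) are 2 bases apart. Col4a4 (chr1:82450723-82586849, minus) and Col4a3 (chr1:82586921-82722059, plus) are 71 bases apart. Col4a6 (chrX:141165403-141474076, minus) and Col4a5 (chrX:141475419-141689235, plus) are 1342 bases apart. Sequences before annotated starts are shown for the 3 genes whose level differed between the sexes and for Col3a1, the most variable of the abundant collagen genes. The Col4a3 sequence is the whole interval between the Col4a4 and Col4a3 rows. They are plus strand of RefSeq GRCm38.p6, at chr1:24177360-24177609 for Col9a1, chr9:108953336-108953585 for Col7a1, chr1:45311288-45311537 for Col3a1 and chr1:82586850-82586920 between Col4a4 and Col4a3. Capitals mark matches, on either strand, to the motif CCAAT, to the motif GGGCGG and to the motif TATAAA, so the first can appear as ATTGG.
Col9a1: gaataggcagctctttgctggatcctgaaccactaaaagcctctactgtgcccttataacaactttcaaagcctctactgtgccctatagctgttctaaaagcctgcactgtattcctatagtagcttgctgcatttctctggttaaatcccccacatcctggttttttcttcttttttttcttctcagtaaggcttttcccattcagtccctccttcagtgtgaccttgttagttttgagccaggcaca
Col7a1: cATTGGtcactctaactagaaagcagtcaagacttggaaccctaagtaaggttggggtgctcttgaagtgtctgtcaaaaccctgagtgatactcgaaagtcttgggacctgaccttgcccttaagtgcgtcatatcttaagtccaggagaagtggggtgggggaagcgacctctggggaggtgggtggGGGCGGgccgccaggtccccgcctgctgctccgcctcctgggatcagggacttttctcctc
Col3a1: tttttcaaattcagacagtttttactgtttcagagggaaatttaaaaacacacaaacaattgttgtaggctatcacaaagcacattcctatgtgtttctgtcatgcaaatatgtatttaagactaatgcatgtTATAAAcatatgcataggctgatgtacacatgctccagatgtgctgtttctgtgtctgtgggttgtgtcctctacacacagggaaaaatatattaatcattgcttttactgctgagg
Col4a4 to Col4a3: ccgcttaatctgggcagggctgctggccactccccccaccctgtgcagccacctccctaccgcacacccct

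The Col7a1 sequence holds 1 CCAAT and 1 GGGCGG, that of Col3a1 holds 1 TATAAA, and those of Col9a1 and of the Col4a4 to Col4a3 interval hold none of the motifs. Col9a1 has another RefSeq start, not shown because annotated exons lie in the 250 bases before it. Those bases hold CCAAT and neither of the other motifs. Of 32851 annotated starts, 33.8% have CCAAT, 32.7% GGGCGG and 12.4% TATAAA in the 250 bases before them, and in 71 bases the shares are 13.3%, 20.7% and 4.40%. Among 38 starts of the 35 collagen genes matched to the RefSeq table, 34.2% have CCAAT, 57.9% GGGCGG and 13.2% TATAAA. The Col7a1 start shown is the RefSeq start, and the deposited row begins later, at 108953745. A match is a description of the letters and marks no bound site.

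The libraries held 19181208 to 30942818 estimated counts (median 26091234), and levels are given as CPM, the counts scaled to a common library size and corrected for library composition by TMM. On that scale 3 counts correspond to 0.097 to 0.1564 CPM. Hand2 transcripts ran from 0.071 to 0.94 CPM (median 0.382) in the empty-vector animals and from 1.02 to 26.3 CPM (median 2.04) in the Hand2 animals. The highest values were those of Hand2 replicate 7 (26.3 CPM) and Hand2 replicate 4 (10.2 CPM). The groups did not overlap for Hand2, so the targeted gene went with the label in all 17 libraries. Markers of muscle fibres, among them Ckm, Acta1 and Myh4, were above 0 in every animal.

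Transcripts of fibrillar type I collagen and of the ubiquitous type IV chains were the most abundant collagen transcripts per length. On the scale of CPM per kilobase (kb) of the longest annotated transcript, Col1a2 stood at 39.3 ± 17.2 (SD, n = 17), Col4a1 at 30.0 ± 5.33 and Col4a2 at 26.6 ± 4.35. Col1a1 stood at 21.9 ± 10.7 and Col3a1 at 19.3 ± 9.77, followed by Col6a1 at 18.7 ± 5.44 and Col6a2 at 13.4 ± 4.48. The order of Col4a1 and Col4a2 varied between animals (ratio per kb 0.968 to 1.26), as did that of Col1a1 and Col3a1 (0.946 to 1.42). Col6a1 stayed above Col6a2 in every animal (1.12 to 1.77). The order also depends on the transcript length used. Next came Col5a3 (7.85 ± 2.88), Col15a1 (6.82 ± 2.36), Col22a1 (4.8 ± 0.676) and Col7a1 (4.40 ± 0.906). At the low end, Col4a6 reached 0.0690 ± 0.0272, Col17a1 0.0659 ± 0.0363 and Col6a5 0.0335 ± 0.0306 CPM per kb, and Col6a5 was at 0 in 3 libraries.

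**Figure D1:**
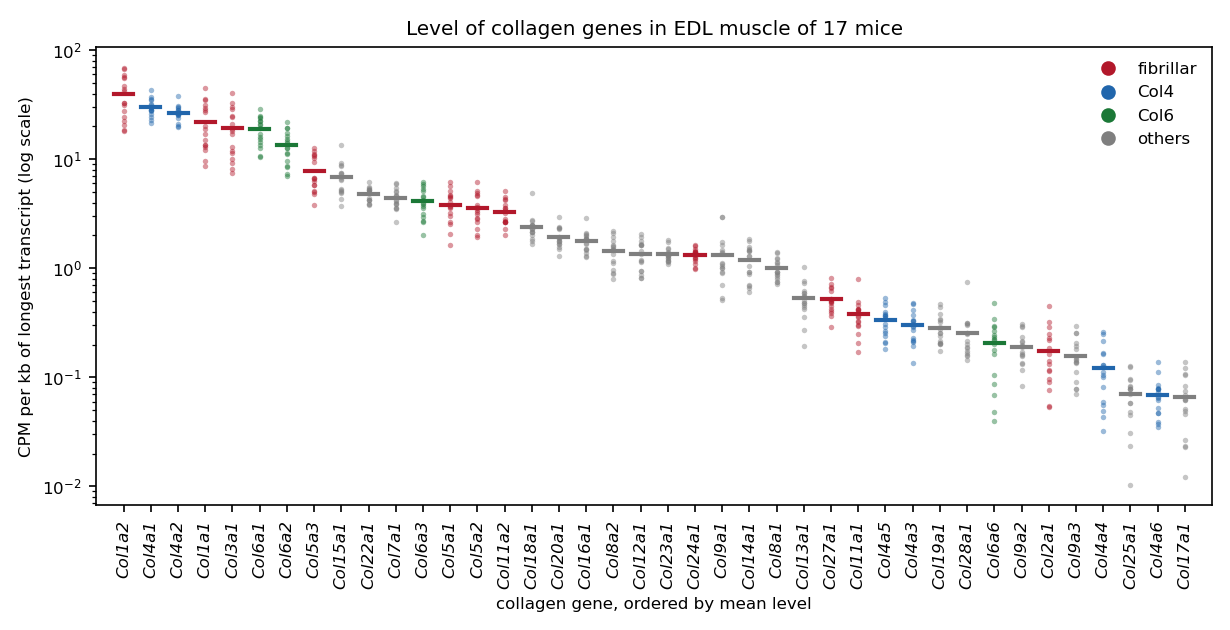
Level of each collagen gene in every animal, in CPM per kb of the longest transcript on a log scale, for the 40 genes above 0 in all 17 libraries. Points are animals, bars are means, and colours are the classes; Col1a2 is highest (mean 39.3) and Col17a1 lowest (mean 0.0659), and Col1a1 and Col3a1 spread more widely than Col4a1.

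Collagen transcripts summed to 1350 ± 364 CPM (SD, n = 17), from 816 in empty-vector replicate 5 to 2210 in Hand2 replicate 7, a 2.70-fold range. Fibrillar genes supplied on average 42.0% of that sum (31.5% to 51.9% by animal), type IV genes 29.0% (20.3% to 39.8%), type VI genes 13.4% and the others 15.5%. The summed fibrillar level differed 3.94-fold between the highest and the lowest animal. For type VI the range was 2.93-fold, for type IV 1.96-fold and for the others 1.86-fold. Of the 41 genes that passed the filter, 23 were highest in Hand2 replicate 7, a male of 23 months, and 10 were lowest in empty-vector replicate 5, a female of 23 months. In bulk muscle, fewer cells of a type and less RNA per cell cannot be told apart.

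**Figure D2:**
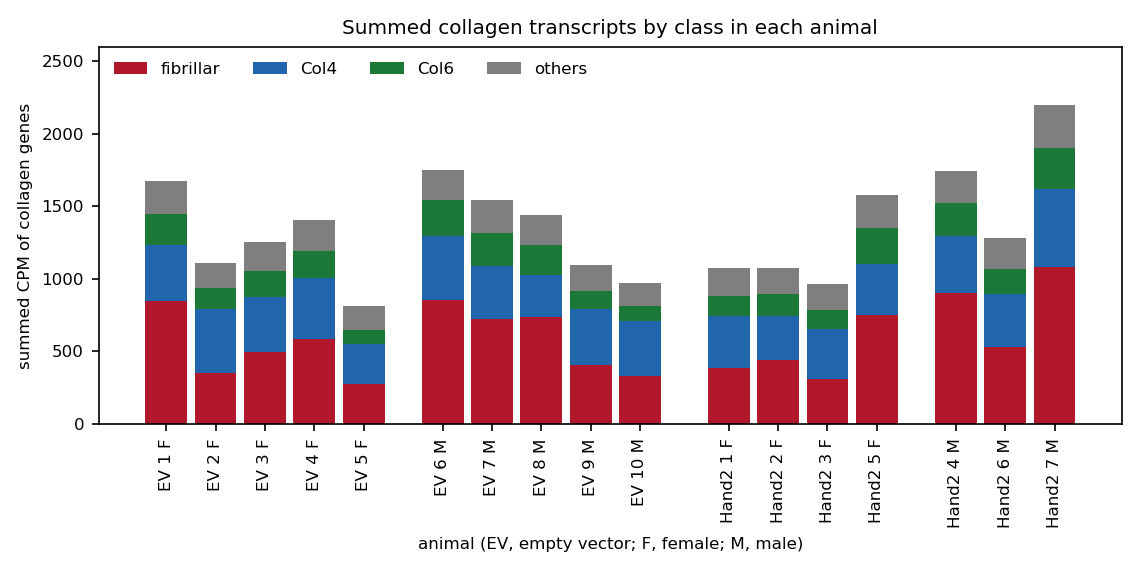
Summed CPM of collagen genes in each animal, stacked by class and ordered by vector and sex. Totals run from 816 CPM (EV 5) to 2210 CPM (Hand2 7), and the fibrillar part changes most between animals.

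The genes of types I, III and V were the most abundant of the 11 fibrillar genes. Col1a1 (chr11:94936270-94951856, plus), the main chain of type I collagen, ran from 51.7 to 210.0 CPM (median 110.0) in the empty-vector animals and from 57.0 to 267.0 CPM (median 111.0) in the Hand2 animals. Col3a1 (chr1:45311538-45349706, plus), the chain of type III collagen, ran from 45.1 to 183.0 CPM (median 100) and from 41.4 to 226.0 CPM (median 100). Col1a2 (chr6:4505697-4541543, plus), the partner chain in type I, ran from 97.1 CPM in empty-vector replicate 5 to 368 CPM in Hand2 replicate 7. The ranges of the vector groups overlapped for Col1a1 and Col3a1, and the highest animal of each was a Hand2 animal. The coefficient of variation over all 17 animals was 48.7% for Col1a1, 43.7% for Col1a2 and 50.7% for Col3a1. It was 32.5%, 32.6% and 36.6% for Col5a1, Col5a2 and Col5a3, which encode the chains of type V collagen found inside type I fibrils.

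Across animals, 18 pairs of genes were compared on log2 CPM by Pearson's r and Spearman's rho with permutation p-values (Benjamini-Hochberg over the 18 pairs). Col1a1 followed Col3a1 with r = 0.97 and rho = 0.95 (n = 17 animals, adjusted permutation p = 2e-05 and 2.25e-05, raw p = 1e-05, the smallest that 100000 permutations can give). It followed Col1a2 with r = 0.96 and rho = 0.97, with the same p-values. Col3a1 followed Col5a2, which lies 24624 bases away on the other strand, with r = 0.97 and rho = 0.98, and Col5a1 followed Col5a2 with r = 0.95 and rho = 0.98. Within the 9 females and the 8 males these r were 0.93 to 0.98, and without the 2 animals farthest from the median of the x gene they were 0.95 to 0.96. Points in such pairs share a library and its scaling factor.

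The ratio of type I to type III transcripts was steadier than either level. The log2 ratio of Col1a1 to Col3a1 was 0.34 ± 0.22 in empty-vector (SD, n = 10) and 0.24 ± 0.16 in Hand2 animals (SD, n = 7), a difference of -0.099 (exact two-sided permutation p = 0.318). It was 0.28 ± 0.21 in females and 0.32 ± 0.20 in males, a difference of 0.039 (exact two-sided permutation p = 0.695). Neither difference exceeded the spread between animals. Per kb, Col1a1 stood at 0.552 ± 0.0796 of Col1a2 (SD, n = 17, from 0.433 to 0.733). Col5a3 stood at 2.07 ± 0.417 times Col5a1 per kb, and Col5a1 at 1.07 ± 0.121 times Col5a2.

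The cartilage-type fibrillar genes were present at uneven levels. Col11a2 averaged 20 ± 5.18 CPM and Col11a1 2.90 ± 1.07 CPM, which is 9.44 ± 3.17 times per kb in favour of Col11a2. Col2a1, the main collagen of cartilage, averaged 0.895 ± 0.542 CPM with the widest coefficient of variation among the fibrillar genes (60.6%). Of 10 cartilage and bone markers, 3 passed the filter (Sox9, Chad and Matn3), Matn1 and Bglap were at 0 in every library, and Acan did not exceed 0.118 CPM. The summed level of this list ran from 26.0 to 72.1 CPM in empty-vector and from 37.8 to 75.6 CPM in Hand2 animals, and most of it came from Chad. The less known fibrillar genes Col24a1 and Col27a1 averaged 9.44 ± 1.35 and 3.96 ± 1.04 CPM. Col24a1 was the steadiest fibrillar gene, at a coefficient of variation of 14.3%.

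A tendon marker, Tnmd, moved with Col1a1, and no other of the 10 tenocyte markers was compared with it across animals. Tnmd, which encodes tenomodulin of tendon cells, ran from 5.11 CPM in empty-vector replicate 2 to 20.2 CPM in empty-vector replicate 1, and r with Col1a1 was 0.89 (rho = 0.93, n = 17, adjusted permutation p = 2e-05 and 2.25e-05). It was 0.86 within females, 0.92 within males and 0.86 without Hand2 replicate 7 and empty-vector replicate 5. All 10 tenocyte markers were above 0 in every animal, and their summed level ran from 487 to 1300 CPM in empty-vector and from 693 to 1070 CPM in Hand2 animals. The part of tendon tissue in these levels was not tested. Pdgfra, a receptor that marks interstitial fibroblasts, followed Col1a1 with r = 0.40 over all animals (rho = 0.40, adjusted permutation p = 0.123 and 0.130), 0.45 within females and 0.96 within males. Csf1r, a macrophage receptor, followed Col3a1 with r = 0.61 (rho = 0.56, adjusted permutation p = 0.0144 and 0.0334), with 0.35 within females and 0.87 within males. The female value was lower than the pooled value, but 9 animals cannot show that a relation is absent. After removal of the means of the vector-by-sex groups, r was 0.72 for Pdgfra with Col1a1 and 0.71 for Csf1r with Col3a1.

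The abundant type IV genes Col4a1 and Col4a2 varied less than Col1a1 and Col3a1. Col4a1, the chain that joins Col4a2 in all basement membranes, ran from 143 CPM in empty-vector replicate 5 to 284 CPM in Hand2 replicate 7. Its coefficient of variation was 17.7%, against 16.3% for Col4a2. The head-to-head pair moved together with r = 0.92 (rho = 0.82, n = 17, adjusted permutation p = 2e-05 and 0.000324), and their ratio per kb was 1.13 ± 0.0771. Their exons share 22 bases on opposite strands, and whether counting used strand is not given. Against Col1a1, Col4a1 had r = 0.48 (rho = 0.49, n = 17, adjusted permutation p = 0.0654 and 0.0622), which fell to 0.13 without Hand2 replicate 7 and empty-vector replicate 5. Those animals lay farthest from the Col1a1 median. Leaving them out narrows the range of Col1a1, so the lower value cannot show that the relation rests on them. Within females r was 0.47 and within males 0.46. Against Cdh5, an endothelial cadherin, Col4a1 had r = 0.58 (rho = 0.54, adjusted permutation p = 0.0205 and 0.0386), with 0.69 within females, 0.55 within males and 0.42 without the same 2 animals.

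The minor type IV chains were lower by far and did not share the tight pairing. Col4a3, a chain of specialised basement membranes, averaged 2.57 ± 0.830 CPM, Col4a4 1.23 ± 0.706, Col4a5 2.19 ± 0.670 and Col4a6 0.459 ± 0.181 CPM (SD, n = 17). They varied more than the abundant pair, with coefficients of variation of 32.3%, 57.1%, 30.7% and 39.4%. Col4a3 and Col4a4, with facing starts, had r = 0.63 (rho = 0.58, n = 17, adjusted permutation p = 0.0119 and 0.0271), but 0.51 within females and 0.16 within males. After removal of the means of the vector-by-sex groups r was 0.34, so the relation was weaker within groups than over all animals. Col4a5 and Col4a6 had r = 0.01 (rho = -0.05, adjusted permutation p = 0.954 and 0.839). Col4a6 lay between 0.232 and 0.927 CPM, and its estimated counts over all 17 libraries came to 204.9.

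The main type VI genes moved with each other, and Col6a1 moved with Col1a1. Col6a1 (chr10:76708792-76726044, minus), whose chain assembles with those of Col6a2 and Col6a3, ran from 42.8 to 98.5 CPM (median 82.4) in empty-vector and from 58.9 to 118.0 CPM (median 70.4) in Hand2 animals. The lowest animal was empty-vector replicate 5 and the highest Hand2 replicate 7, with broad overlap. It followed Col6a2, which lies on the same strand 85387 bases away, with r = 0.96 (rho = 0.96, n = 17, adjusted permutation p = 2e-05 and 2.25e-05). It followed Col6a3 with r = 0.90 and Col1a1 with r = 0.91. Its r with Col4a1 was 0.45 (rho = 0.44, adjusted permutation p = 0.0873 and 0.0982) and 0.08 without Hand2 replicate 7 and empty-vector replicate 5. Per kb, Col6a1 stood at 1.43 ± 0.149 times Col6a2 and 4.58 ± 0.645 times Col6a3. The alternative alpha 3-like genes were scarce, with Col6a6 at 1.80 ± 1.01, Col6a5 at 0.311 ± 0.285 and Col6a4 at 0.0715 ± 0.0796 CPM.

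**Figure D3:**
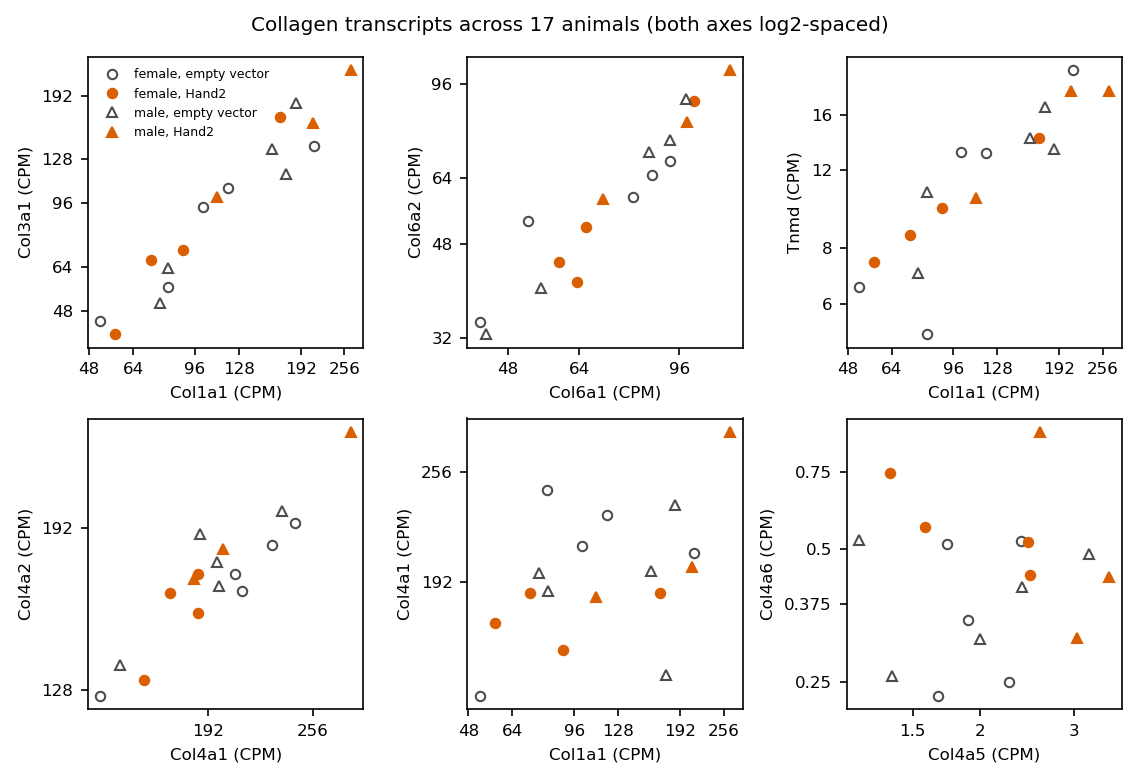
Pairs of genes across the 17 animals in CPM, both axes log2-spaced, with symbols for sex and fill for the vector. Col1a1 rises with Col3a1 (r = 0.97) and Tnmd (r = 0.89), Col6a1 with Col6a2 (r = 0.96) and Col4a1 with Col4a2 (r = 0.92), while Col1a1 with Col4a1 (r = 0.48) and Col4a5 with Col4a6 (r = 0.01) scatter.

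The other collagen genes differed in how much they varied. Col22a1, known at the junction of muscle and tendon, averaged 42.3 ± 5.96 CPM with a coefficient of variation of 14.1%, and its r with Col1a1 was 0.31 (rho = 0.30, n = 17, adjusted permutation p = 0.239 and 0.248). Col15a1, a basement membrane collagen of vessels and muscle fibres, averaged 35.3 ± 12.2 CPM, with a coefficient of variation of 34.6%. It followed Col1a1 with r = 0.81 (rho = 0.80, adjusted permutation p = 0.000216 and 0.000324), 0.90 within females and 0.78 within males. Col12a1 and Col14a1, whose products coat fibrils, averaged 15.5 ± 4.63 and 7.64 ± 2.62 CPM. Col13a1 and Col25a1, transmembrane collagens known at the nerve-muscle contact, averaged 1.68 ± 0.612 and 0.467 ± 0.215 CPM, with coefficients of variation of 36.5% and 46.0%. Col8a1, Col18a1, Col19a1 and Col28a1 averaged 5.10 ± 1.13, 13.5 ± 3.98, 1.21 ± 0.373 and 1.08 ± 0.587 CPM. Col16a1 ran from 6.59 to 14.9 CPM over the 17 animals, Col23a1 from 6.14 to 10.3 and Col8a2 from 3.44 to 9.56 CPM.

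The comparison of vectors asks what the Hand2 vector changed in muscle, and no collagen gene passed its threshold. Of 41 tested, 0 were called (edgeR quasi-likelihood test, Benjamini-Hochberg adjusted p under 0.05 over 13965 genes), against 0.0% of all genes. DESeq2 and limma-voom with quality weights also called 0. At an unadjusted p under 0.05, 2 collagen genes were higher and 0 lower, against 2.48% of all genes higher and 2.56% lower (5.05% together). The vector groups did not overlap for 0 of 41, against 0.0215% of all genes. The median log2 difference (Hand2 minus empty vector) was 0.14 over collagen genes and 0.0 over all genes tested, and 32 of 41 were positive, against 48.3% of all genes. By class the medians were 0.13 (fibrillar), 0.15 (type IV), 0.18 (type VI) and 0.14 (others). Without Hand2 replicate 7 the collagen median was 0.05 and 26 of 41 were positive. Beside this shift, 9 of 9 macrophage markers and 8 of 10 fibro-adipogenic markers were also positive, against 48.3% of all genes, with 0 called (edgeR). Their sums ran from 82.0 to 230.0 and from 1150 to 2370 CPM in empty-vector animals, and from 135 to 202 and from 1670 to 2400 CPM in Hand2 animals. Other markers went in both directions, from -0.20 (Emcn) to 0.10 (Tek) for endothelial and from -0.34 (Egr1) to 0.28 (Chodl) for tenocyte markers. The part of any of these cells in the shift was not tested.

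The estimates for the abundant genes were small beside their errors. Col1a1 averaged 124.0 ± 54.7 CPM in empty-vector (SD, n = 10) and 139.0 ± 78.0 CPM in Hand2 animals (SD, n = 7), a log2 difference of 0.13 ± 0.33 (SE). Its 95% interval, -0.57 to 0.83, spans both directions. Col3a1 differed by 0.25 ± 0.34, Col6a1 by 0.18 ± 0.21 and Col6a2 by 0.18 ± 0.23. Tighter limits held for Col4a1, at -0.03 ± 0.12 (95% interval -0.28 to 0.23), Col4a2, at 0.03 ± 0.10 (-0.19 to 0.25), and Col22a1, at 0.10 ± 0.10 (-0.10 to 0.31). None of these differences exceeded the spread between animals.

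The smallest p-values for higher levels with Hand2 belonged to Col20a1, Col28a1 and Col4a6. Col20a1, a fibril-associated collagen, ran from 6.48 to 11.8 CPM (median 8.61) in empty-vector and from 8.72 to 14.8 CPM (median 11.5) in Hand2 animals. The groups overlapped between 8.72 and 11.8 CPM. The difference was 0.29 ± 0.10 on the log2 scale (edgeR unadjusted p = 0.00769, adjusted p = 0.921). Col28a1, a collagen of peripheral nerve, averaged 0.888 ± 0.257 CPM in empty-vector and 1.35 ± 0.818 CPM in Hand2 animals, a log2 difference of 0.60 ± 0.26 (edgeR adjusted p = 0.921). Its highest animal, Hand2 replicate 7, had 3.14 CPM and the next Hand2 animal 1.34 CPM. Without that animal the Col28a1 difference was 0.26 (edgeR adjusted p = 0.891). Col4a6 differed by 0.54 ± 0.27 (edgeR adjusted p = 0.921). In the other direction, Col9a3 differed by -0.55 ± 0.29, Col19a1 by -0.26 ± 0.22 and Col23a1 by -0.10 ± 0.11, none past the threshold.

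Within females 0 of 41 collagen genes were called, against 0.0% of all genes, and 1, which was lower, had an unadjusted p under 0.05 (edgeR), against 3.15% of all genes lower and 5.9% in either direction. The female groups did not overlap for 0 of 41, against 1.65%. That gene was Col9a3, a type IX chain, at -0.81 ± 0.38, whose last exons overlap Tcfl5 on the other strand. The female median was -0.03, and 17 of 41 were positive, against 48.4% of all genes. Its direction changed with the animals used. Without empty-vector replicate 1 the median was 0.10 with 29 of 41 positive, and without Hand2 replicate 5 it was -0.19 with 10 of 41. In females of 22 months alone it was -0.23 (12 of 41), and in those of 23 months 0.30 (31 of 41). Only 1 Hand2 female, replicate 5, was aged 23 months, so the latter value rests on that animal. Within males 0 of 41 were called, against 0.0% of all genes, while 4 had an unadjusted p under 0.05, all higher (edgeR), against 1.45% of all genes higher and 2.84% in either direction. DESeq2 and limma-voom called 0 in either sex, with 1 each at an unadjusted p under 0.05 in females, and 4 and 2 in males. The male median was 0.35, and 36 of 41 were positive, against 48.8% of all genes. Among males, the 5 red blood cell markers measured summed to 281 to 701 CPM with the empty vector and 486 to 2290 CPM with Hand2, and their part in the male values was not tested.

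In males, the 4 genes were Col18a1, Col9a2, Col28a1 and Col20a1. Col18a1, a basement membrane collagen whose end releases endostatin, was at 13.2, 15.1, 14, 9.32 and 9.95 CPM in the 5 empty-vector males and at 15.6, 12.9 and 27.4 CPM in the 3 Hand2 males. The groups overlapped, and Hand2 replicate 7 stood far above the others. The log2 difference was 0.59 ± 0.20 (edgeR unadjusted p = 0.00814, adjusted p = 1). Col9a2 was at 0.244, 0.480, 0.392, 0.344 and 0.456 CPM in empty-vector males and at 0.865, 0.464 and 0.837 CPM in Hand2 males, a log2 difference of 0.91 ± 0.33. Col20a1 was at 7.79, 8.39, 8.38, 7.6 and 6.48 CPM in empty-vector males and at 8.85, 8.72 and 11.7 CPM in Hand2 males. It was the 1 collagen gene whose male groups did not overlap, against 1.2% of all genes higher without overlap and 2.64% in either direction.

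Hand2 replicate 7, the animal with the most Hand2 transcript (26.3 CPM), weighed on the male values. Without it the male median over collagen genes was 0.17, 31 of 41 were positive, and 0 had an unadjusted p under 0.05. In males Col1a1 averaged 135.0 ± 52.9 CPM in 5 empty-vector and 195.0 ± 78.8 CPM in 3 Hand2 animals, a log2 difference of 0.53 ± 0.47 (95% interval -0.49 to 1.55). In females it averaged 113.0 ± 60.1 and 96.5 ± 49.6 CPM, a difference of -0.22 ± 0.44. The difference between the sexes in the vector effect was tested by the interaction, which called 0 of 41 collagen genes (edgeR), against 0.0% of all genes, with 2 at an unadjusted p under 0.05, both positive, against 2.01% of all genes positive and 3.39% in either direction. DESeq2 and limma-voom called 0, with 1 each at an unadjusted p under 0.05. Those 2 were Col18a1 (0.70 ± 0.27) and Col9a2 (1.01 ± 0.45). The median interaction estimate was 0.39, and 36 of 41 were positive, against 49.7% of all genes. In animals of 22 months alone the median was 0.69 (37 of 41), and in those of 23 months -0.15 (17 of 41). At 22 months each vector had 1 male, and at 23 months Hand2 had 1 female.

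**Figure D4:**
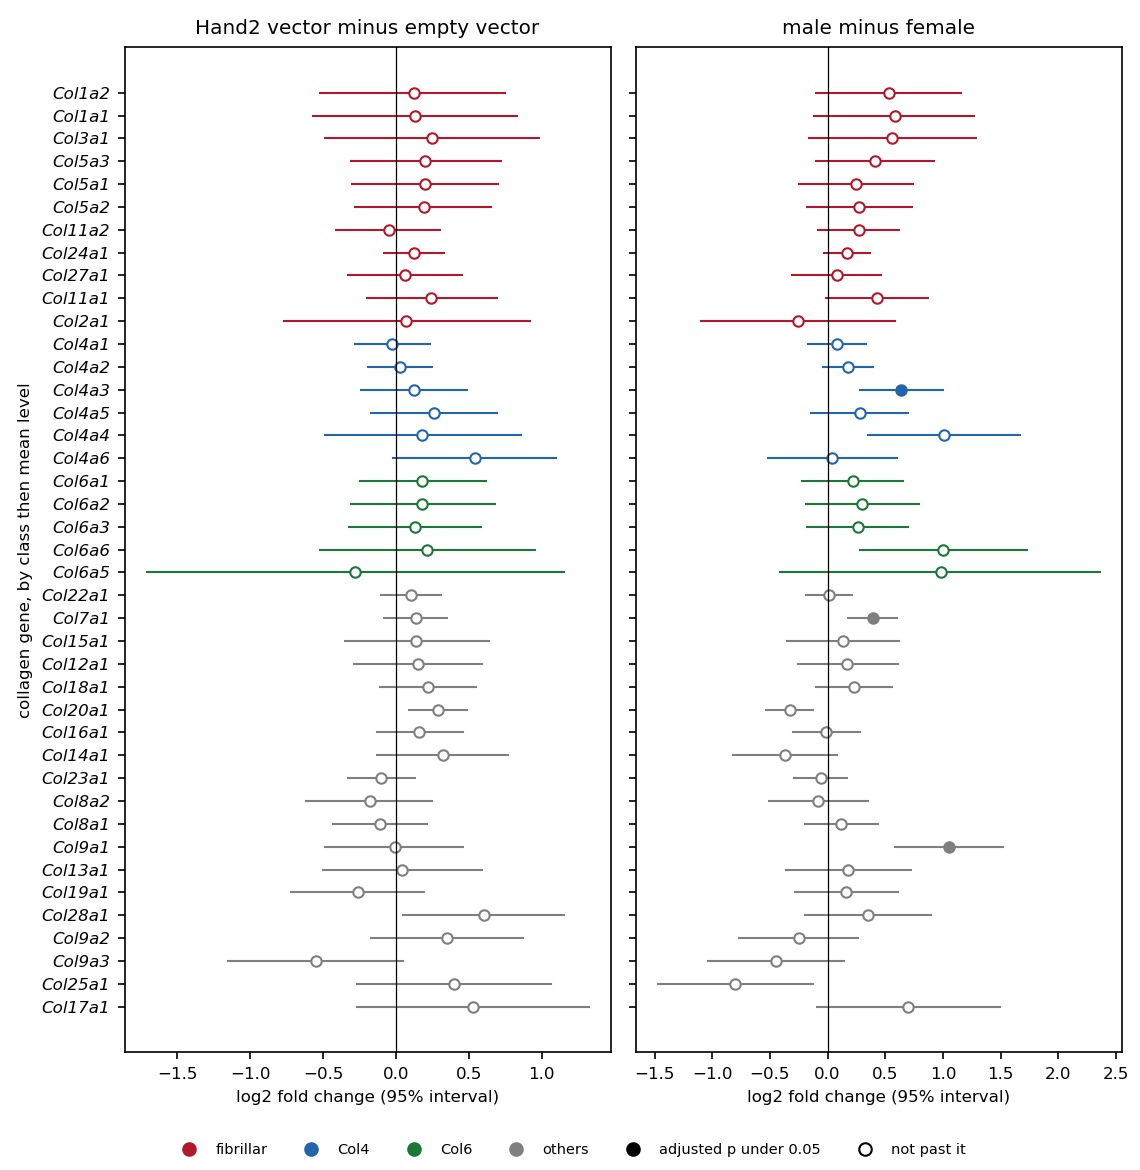
Log2 fold change with its 95% interval for the 41 collagen genes tested, for Hand2 minus empty vector (left) and male minus female (right), coloured by class, with filled points past an adjusted p of 0.05. On the left 0 genes are filled, and on the right 3 are: Col4a3, Col7a1 and Col9a1.

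Males had higher Col9a1, Col7a1 and Col4a3 transcripts than females. Of 41 collagen genes, 3 were called higher in males and 0 lower (edgeR), or 7.3%, against 5.63% of all genes called in either direction, 2.91% called higher and 2.72% called lower. The sexes overlapped for all 41, and 0.845% of all genes did not overlap. By class, 0 of 11 fibrillar, 1 of 6 type IV, 0 of 5 type VI and 2 of 19 other genes were called. The median log2 difference (male minus female) was 0.22 over collagen genes and 0.0 over all genes, and 32 of 41 were positive, against 50.1% of all genes. Without Hand2 replicate 7 it was 0.14.

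Col9a1 (chr1:24177610-24252738, plus), a chain of type IX collagen that sits on the surface of cartilage fibrils, showed the largest of the called differences. It ran from 1.97 to 4.28 CPM (median 3.55) in the 9 females and from 3.86 to 11.3 CPM (median 5.92) in the 8 males. Empty-vector replicate 6 was the male inside the female range, and the other males lay above every female. Means were 3.34 ± 0.887 CPM in females and 6.93 ± 2.78 CPM in males, a log2 difference of 1.05 ± 0.22 (edgeR adjusted p = 0.00962). All 8 males exceeded the female median. In animals of 22 months Col9a1 averaged 3.30 ± 0.949 CPM in 5 females and 5.75 ± 0.685 CPM in 2 males, and at 23 months 3.39 ± 0.944 CPM in 4 females and 7.33 ± 3.15 CPM in 6 males. The type IX partners Col9a2 and Col9a3 were far lower, at 0.558 ± 0.184 and 0.481 ± 0.204 CPM over all animals, and did not pass the test.

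Col7a1 (chr9:108953745-108984875, plus), the collagen of anchoring fibrils below skin epithelium, ran from 24.7 to 43.5 CPM (median 36.0) in females and from 36.0 to 55.9 CPM (median 46.9) in males. The sexes overlapped between 36.0 and 43.5 CPM. The log2 difference was 0.39 ± 0.10 (edgeR adjusted p = 0.0315). The epithelial markers Krt5 and Krt15 were at 0 in every library and Krt14 in all but 1 (0.0343 CPM in empty-vector replicate 7). Of the 8 skin markers, 3 passed the filter, and the summed level was lower in males (15.5 to 25.3 CPM) than in females (21.6 to 42.4 CPM), most of it Trp63. The Col7a1 level per kb, 4.40 ± 0.906, was close to that of Col6a3 (4.14 ± 1.23).

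Col4a3 ran from 1.15 to 2.79 CPM (median 1.90) in females and from 2.31 to 4.12 CPM (median 3.04) in males. The sexes overlapped between 2.31 and 2.79 CPM, and all 8 males exceeded the female median. The log2 difference was 0.64 ± 0.17 (edgeR adjusted p = 0.0354). Of its exonic bases, 5.65% overlap C430014B12Rik on the opposite strand, and reads of these genes cannot be told apart without strand. The neighbour Col4a4 averaged 0.831 ± 0.388 CPM in females and 1.69 ± 0.721 CPM in males, a log2 difference of 1.01 ± 0.32 (edgeR adjusted p = 0.068). It did not pass the threshold in edgeR, and DESeq2 called it (1.02, adjusted p = 0.0258).

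**Figure D5:**
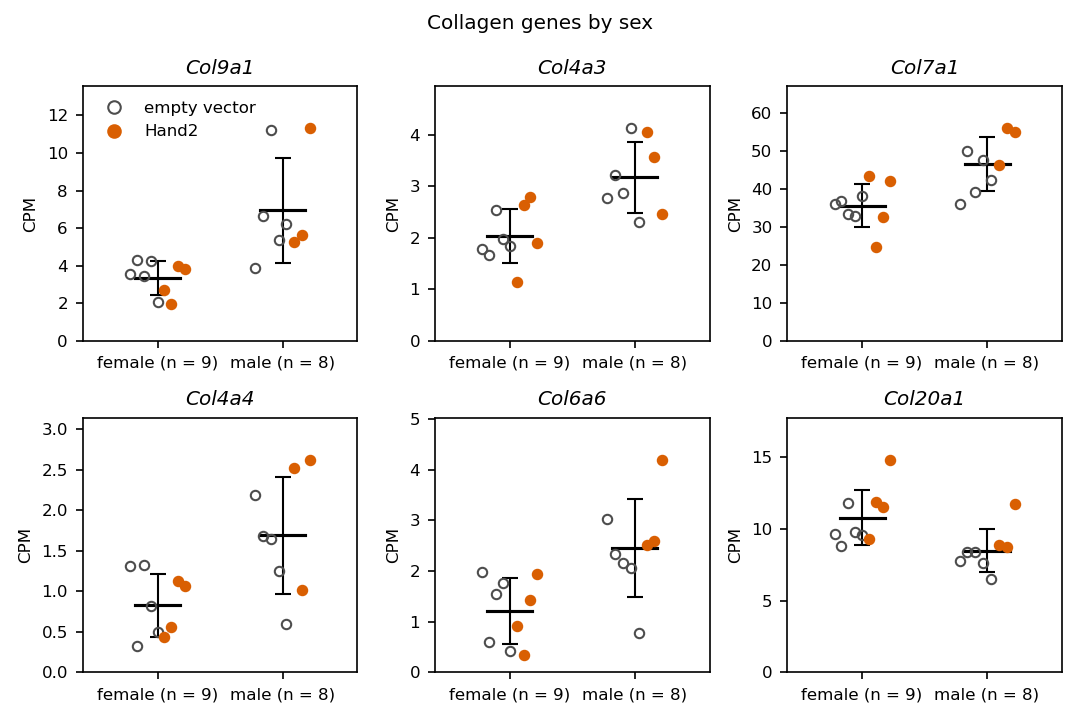
CPM of 6 collagen genes in 9 females and 8 males, points for animals (open for empty vector, filled for Hand2), with mean and SD. Males lie higher for Col9a1, Col4a3 and Col7a1 with some overlap, while Col4a4, Col6a6 and Col20a1 did not pass the threshold in the main edgeR fit.

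The call for Col9a1 held without each animal in turn, whereas those for Col7a1 and Col4a3 did not. Col9a1 was not called in animals of 22 months alone (0.77, edgeR adjusted p = 0.734), of 23 months alone (1.08, adjusted p = 0.114), with 1 surrogate variable (0.96, adjusted p = 0.123) or when the 3 empty-vector females of 23 months (replicates 3, 4 and 5) were left out (1.02, adjusted p = 0.0647). Of these fits, the surrogate variable kept the call for Col4a3 (0.87, edgeR adjusted p = 0.0365) but not for Col7a1 (0.29, adjusted p = 0.308). The others called neither gene. Limma on the deposited log2 values did not call Col7a1 (0.4, adjusted p = 0.0558). Col7a1 lost its call when 1 of 7 animals was left out, namely replicates 3, 4, 7 and 9 of the empty vector and 3, 6 and 7 of Hand2 (edgeR adjusted p = 0.0579, 0.0524, 0.0678, 0.0611, 0.0604, 0.0686 and 0.0681). Col4a3 lost its call when 1 of 8 animals was left out, namely replicates 2, 4, 5, 7, 8 and 9 of the empty vector and 4 and 6 of Hand2 (edgeR adjusted p = 0.0532, 0.0529, 0.0573, 0.0644, 0.0526, 0.0738, 0.0715 and 0.0686). With age as a further term, Col9a1 stayed called (1.0, adjusted p = 0.0291), and Col7a1 (0.36, adjusted p = 0.07) and Col4a3 (0.62, adjusted p = 0.0676) did not. That fit also called Col20a1 lower in males (-0.4, edgeR adjusted p = 0.0109). Of the females 5 were aged 22 months and of the males 2, so age and sex overlap in part.

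Of the genes not called, Col20a1 came closest to the threshold. It ran from 8.83 to 14.8 CPM (median 9.75) in females and from 6.48 to 11.7 CPM (median 8.39) in males, with broad overlap and 1 of 8 males above the female median. The difference was -0.33 ± 0.10 (edgeR adjusted p = 0.0521), and DESeq2 (adjusted p = 0.0181) and limma-voom (adjusted p = 0.0369) called it. So did the edgeR fit with an age term (-0.4, adjusted p = 0.0109). In all, 5 of 31 alternatives called it. Col6a6, an alternative chain of type VI, averaged 1.22 ± 0.652 CPM in females and 2.46 ± 0.960 CPM in males, a difference of 1.0 ± 0.34 (edgeR adjusted p = 0.098), and DESeq2 called it (adjusted p = 0.0431). Col25a1 differed by -0.80 ± 0.32 (edgeR adjusted p = 0.149) at means of 0.587 and 0.333 CPM. Col1a1 averaged 105.0 ± 52.9 CPM in females and 158.0 ± 65.9 CPM in males, a difference of 0.58 ± 0.32 (edgeR adjusted p = 0.325). Col3a1 differed by 0.56 ± 0.34, Col1a2 by 0.53 ± 0.29, Col4a1 by 0.08 ± 0.12, Col6a1 by 0.22 ± 0.20 and Col22a1 by 0.01 ± 0.09, none past the threshold.

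Markers of other cells differed between the sexes as well. The summed level of 8 adipocyte markers ran from 1820 to 2830 CPM in females and from 1040 to 1940 CPM in males, and 6 of 8 were called lower in males (edgeR), against 2.72% of all genes. Most of that sum came from Car3, at means of 1940 CPM in females and 1180 CPM in males, so the sum mainly follows that gene. Adipoq averaged 4.91 CPM in females and 2.14 CPM in males, whereas Fabp4 averaged 189 and 209 CPM. The 10 tenocyte markers had 0 calls, with sums of 487 to 1300 CPM in females and 577 to 1070 CPM in males. The 10 fibro-adipogenic markers had 0 calls, with sums of 1240 to 2210 and 1150 to 2400 CPM. Of the pericyte and smooth muscle list, 2 of 9 tested were called higher in males, against 2.91% of all genes. The part of these cells in the collagen differences was not tested.

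Genes that make, process, bind and break down collagen were read from lists. In the comparison of vectors, within either sex and for the interaction, 0 members of any of the 7 lists were called (edgeR). At an unadjusted p under 0.05 (edgeR) there were 3 members over all lists between the vectors, against 5.05% of all genes, 3 within females, against 5.9%, 2 within males, against 2.84%, and 1 for the interaction, against 3.39%. For the vectors, the list medians were 0.02 for hydroxylases and chaperones (18 tested), 0.13 for proteinases and crosslinking enzymes (13), 0.10 for breakdown (16), 0.12 for receptors (10), 0.12 for binding proteins (18), 0.10 for basement membrane partners (18) and 0.01 for transforming growth factor beta signalling (17), against 0.0 over all genes.

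Between the sexes, where 5.63% of all genes were called (edgeR), members of these lists were called in each direction. They are given as single genes, and no list was tested as a set. Of the hydroxylases and chaperones, Plod2, a lysyl hydroxylase that sets the type of crosslink, fell to 4.07 CPM in males from 8.22 CPM in females (-1.02 ± 0.12, adjusted p = 3.43e-05). Mia3, an export receptor for procollagen, was higher (0.21 ± 0.04). Of the basement membrane partners, Lamc3 rose to 2.67 CPM in males from 0.536 CPM in females (2.32 ± 0.37, adjusted p = 0.00104), and Lamb2, a laminin of the nerve-muscle contact, was lower (-0.35 ± 0.05). Of the breakdown genes, the protease gene Ctsl was lower (-0.36 ± 0.08), and of the receptors Cspg4, a type VI collagen receptor, was higher (0.34 ± 0.10). Fbln1, a binding protein, was lower (-0.43 ± 0.11), as was Tgfb3 (-0.35 ± 0.05). Of the 13 proteinases and crosslinking enzymes tested, Furin had the smallest p, at -0.10 ± 0.06 (adjusted p = 0.315).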

How the data were processed

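RNA of EDL muscle from 17 mice was prepared with a TruSeq v2 kit, per the labels. The genome build was mm10, per the submitters' processing notes. For the aligner, the counter and the strand setting, names were not given in the sources used here. Files deposited by the authors hold estimated counts for 36172 gene rows and log2 normalized values, per the file headers. Estimated counts were rounded, filtered with filterByExpr by vector and sex (13965 genes kept), scaled by TMM (trimmed mean of M values) and put through the robust quasi-likelihood test of edgeR 4.0.16 in R 4.3.3, with Benjamini-Hochberg adjustment and a threshold of 5%. SE values were derived from the F statistic. An additive fit of vector and sex gave those comparisons, while a fit of 4 groups gave the effects in each sex and the interaction. The script was tested on simulated counts. Correlations and the Col1a1 to Col3a1 ratio were computed on log2 CPM (prior count 2). CPM per kb used the longest transcript of the mouse GENCODE annotation supplied for mm10. Named genes were those past the threshold, the 3 smallest p in each direction of each comparison, the 3 most abundant of each class and a fixed panel. The collagen genes, lists and pairs were chosen with earlier results of these data known. Alternatives were DESeq2 1.42.0, limma 3.58.1 with voom quality weights or on the deposited log2 values, other scalings and filters, an age term, single ages, 1 surrogate variable (sva 3.50.0) and leaving out animals. A result for 1 list gene is not reported here.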

Additional observations from a re-analysis of the deposited data

Results flagged for a closer look

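In each vector group, the gap from the highest or lowest animal to its nearest neighbour was compared with the range of the group on the log2 scale. Of 82 such groups, 4 exceeded Dixon's critical value, and chance flags about 1 in 20. All 4 lay in the Hand2 group. Col4a1 was 284 CPM in Hand2 replicate 7, and the next of the 7 animals had 200 CPM. Col18a1 was 27.4 CPM in the same animal, against 15.6 CPM in the next. Col28a1 was 3.14 CPM there, against 1.34 CPM. Col22a1 was lowest in Hand2 replicate 5, at 34.3 CPM, with 43.6 CPM in the next.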

How the results depend on the processing

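The count of collagen genes called by vector was 0 under each of the alternatives run, in both sexes together, in females, in males and for the interaction. Between the sexes it was 3, and DESeq2 gave 6 (against 9.1% of all genes). It was 1 with 1 surrogate variable (against 1.88% of all genes). It was 0 in animals of 22 months (0.169%), in those of 23 months (2.88%) and without empty-vector replicates 3, 4 and 5 (2.07%). It ranged from 1 to 5 when each animal was left out, against 3.42% to 6.83% of all genes. The ratio of Col1a1 to Col3a1 changed by 0.0 to 0.08 between the sexes and by -0.136 to -0.062 between the vectors when an animal was left out, without passing the threshold. Of 60 gene results, 34 kept their direction under every alternative run, and 64 of 1828 values reversed. Causes were not tested.

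In animals of 22 months, these vector estimates reversed: Col15a1 -0.31, Col19a1 0.04, Col1a1 -0.35, Col23a1 0.17, Col3a1 -0.08, Col4a2 -0.15, Col6a3 -0.18 and Col7a1 -0.05. So did Col23a1 in females (0.07), Col19a1 (0.11), Col8a1 (0.28) and Col8a2 (0.32) in males, the interactions of Col19a1 (0.10) and Col8a1 (0.53), and the sex estimates of Col15a1 (-0.17), Col22a1 (-0.15) and Col6a3 (-0.06). Males of that age were 1 per vector, assumed to vary like the other groups. In animals of 23 months, vector estimates of Col22a1 (-0.06), Col4a1 (0.17) and Col4a3 (-0.12), female estimates of Col1a1 (0.89) and Col3a1 (1.03) and interactions of Col1a1 (-0.56), Col3a1 (-0.65) and Col4a6 (0.52) reversed. Only 1 Hand2 female, replicate 5, had that age, so the female and interaction values rest on that animal. With 1 surrogate variable the sex estimates of Col15a1 (-0.19), Col4a1 (-0.02) and Col6a3 (-0.09) reversed. Without empty-vector replicates 3, 4 and 5 together, Col23a1 reversed in both sexes together (0.07) and in females (0.10), and the Col8a1 interaction was 0.10. With limma-voom the Col15a1 vector estimate was -0.02 and the Col4a6 interaction 0.05. With an age term Col3a1 in females was 0.02. After removal of group means, r between Col4a5 and Col4a6 was -0.12.

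With each animal left out in turn, vector estimates ranged from -0.04 to 0.32 for Col1a1, -0.14 to 0.02 for Col4a1, -0.06 to 0.08 for Col4a2, 0.0 to 0.21 for Col6a3 and -0.08 to 0.22 for Col15a1. In females they ranged from -0.63 to 0.13 for Col1a1 and from -0.56 to 0.20 for Col3a1. Interactions ranged from -0.42 to 0.02 for Col19a1, -0.27 to 0.06 for Col8a1 and -0.68 to 0.15 for Col4a6. Sex estimates ranged from -0.02 to 0.14 for Col4a1, -0.05 to 0.05 for Col22a1 and -0.06 to 0.21 for Col15a1. Depth limits the scarcest genes: estimated counts over all 17 libraries came to 137.8 for Col6a5 and 204.9 for Col4a6.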
